A study of Drosophila melanogaster with 2 samples.

Results

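The small nuclear RNA (snRNA) genes of Drosophila melanogaster were described in a map of H2.0-eGFP binding in whole embryos. The genes were chosen by their annotated biotype, snRNA, and their name, which gave 32 of 18277 annotated genes other than transposable elements. The class was selected with peaks at some of its genes already known, so its counts are given as a description, with no test. Embryos aged 0 to 24 h, of a strain with a transgenic fusion of H2.0 to the green fluorescent protein eGFP, had been used for chromatin immunoprecipitation with an anti-GFP antibody followed by sequencing. The 2 biological replicates form a single group, with nothing to compare it with. Both carry the same fusion, and all cell types of the embryo were mixed. H2.0, a homeodomain protein, is known for its expression in the visceral muscle of the embryo.

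Small nuclear RNAs are short, abundant and untranslated, and most of them form the RNA core of the particles that remove introns. U1 pairs with the start of an intron, U2 with its branch point, U4 with U6 until the spliceosome is activated, U5 holds the exon ends, and U6 lies at the catalytic centre. 7SK RNA belongs to another particle, which holds the elongation kinase P-TEFb inactive. RNA polymerase II transcribes U1, U2, U4 and U5, and RNA polymerase III transcribes U6 and 7SK. In flies both groups of promoters are known to carry a shared proximal sequence element bound by the same factor, SNAPc, and the polymerase III promoters a TATA box besides. The 21 genes of polymerase II were 5 of U1, 6 of U2, 3 of U4 and 7 of U5. The 5 of polymerase III were 3 of U6 and 2 of 7SK. The other 6 were single genes: U4atac, U6atac, U11 and U12 of the minor spliceosome, U7, which acts in histone mRNA processing, and LU, an RNA named for its likeness to the U class.

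The stretches just before the genes are shown for the members on which the results turn, beside copies that lacked a peak. The capitals mark the 8-base element ATTCNCAA and, where present, TATAAA or TATATA. Each line gives the 70 bases before the annotated start on the strand of the gene, read from the assembly BDGP6 (dm6).
U1:95Ca (chr3R:23859631-23859700, minus strand): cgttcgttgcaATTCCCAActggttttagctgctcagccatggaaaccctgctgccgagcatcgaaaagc
U1:95Cb (chr3R:23827800-23827869, plus strand): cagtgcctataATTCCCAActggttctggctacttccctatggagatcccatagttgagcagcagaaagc
U2:34ABb (chr2L:13215769-13215838, plus strand): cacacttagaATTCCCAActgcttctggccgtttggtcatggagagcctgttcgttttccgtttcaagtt
U5:63BC (chr3L:3090731-3090800, plus strand): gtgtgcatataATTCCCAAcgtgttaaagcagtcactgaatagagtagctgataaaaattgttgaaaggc
U6:96Aa (chr3R:24556018-24556087, plus strand): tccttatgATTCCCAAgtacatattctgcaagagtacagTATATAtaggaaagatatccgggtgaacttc
U6:96Ab (chr3R:24556622-24556691, plus strand): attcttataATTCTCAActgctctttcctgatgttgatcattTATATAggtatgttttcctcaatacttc
U6:96Ac (chr3R:24557145-24557214, plus strand): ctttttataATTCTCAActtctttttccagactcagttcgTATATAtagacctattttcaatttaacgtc
7SKa (chr3R:7474997-7475066, minus strand): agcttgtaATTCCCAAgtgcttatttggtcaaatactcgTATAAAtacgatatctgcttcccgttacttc
7SKb (chr3R:23432799-23432868, plus strand): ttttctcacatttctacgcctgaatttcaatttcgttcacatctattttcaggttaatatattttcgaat

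The exact word ATTCCCAA was the 8-mer that most members shared in the 100 bp before their starts, on either strand. It stood before 26 of 32 snRNA genes (81.2%), against 123 of 18277 annotated genes (0.673%). With any base at the fifth position, a form chosen after the sequences were seen, it stood before 31 of 32 snRNA genes and before 391 of all genes (2.14%). Only 7SKb lacked it. Its first base lay 65 to 58 bp before the start in the 21 polymerase II genes and 62 to 61 bp before the start in the 4 polymerase III genes that held it. TATAAA or TATATA, searched on the gene's strand from 40 to 15 bp before the start, stood before 0 of 21 polymerase II genes and 4 of 5 polymerase III genes, against 1623 of all genes (8.88%). The element and the TATA word began 31 bp apart at U6:96Aa, U6:96Ac and 7SKa and 33 bp apart at U6:96Ab. U6atac, a minor-spliceosome gene that is known to be transcribed by polymerase III, had the same arrangement with 31 bp between them. A match of letters is a description and does not show that a factor binds there.

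**Figure D1:**
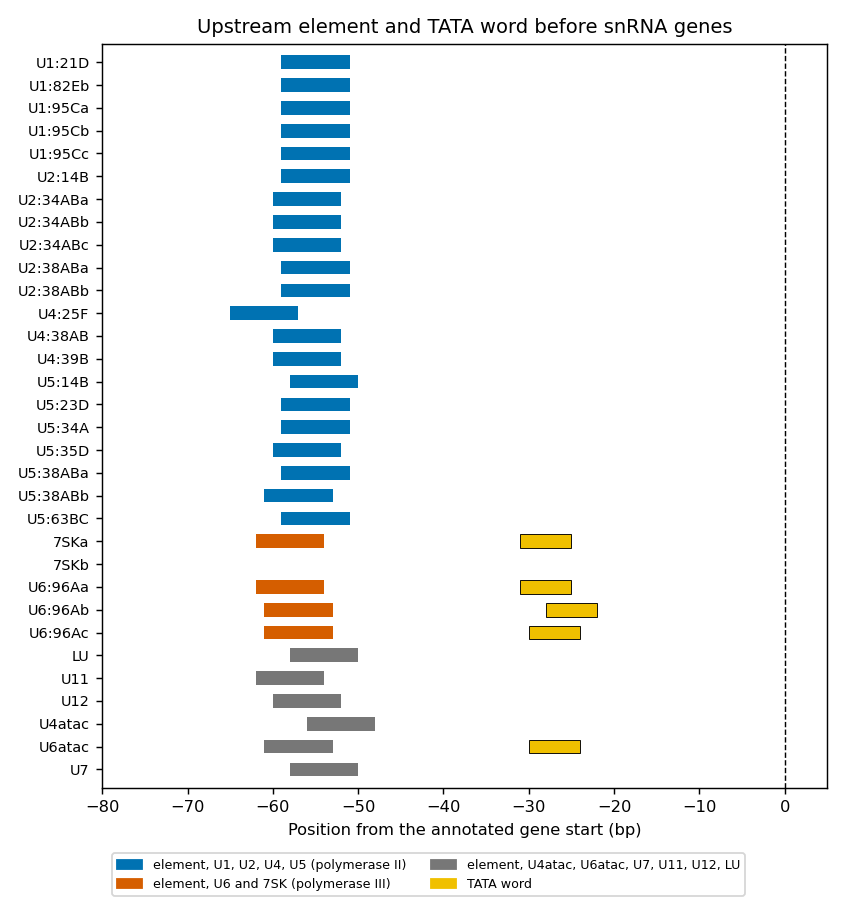
Positions of the shared element (ATTCNCAA) and of a TATA word before each of the 32 snRNA genes, in bp from the annotated start, with one row per gene. The element stands before 31 genes, and the TATA word before 4 of 5 genes of U6 and 7SK, U6atac and none of U1, U2, U4 and U5.

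In the thresholded list of both replicates together, 7 of 32 snRNA genes (21.9%) had a summit inside the gene or within 500 bp of it. The thresholded lists keep peaks at an irreproducible discovery rate (IDR) of 0.01, a measure of how peaks recur between data sets. A replicate's own list draws on that replicate alone, so it does not show recurrence between replicates. The 7 genes were U1:95Ca, U2:34ABb, U5:35D, U5:63BC, U6:96Ab, U6:96Ac and 7SKa. They shared 6 distinct summits, since one summit lay within reach of both U6 copies. Of genes no longer than the longest snRNA gene, 4.87% had such a summit, and the share was 5.86% of 290 tRNA genes and 4.09% of 269 snoRNA genes. Of all genes, whose spans are mostly longer, 21.5% had one. Measured from the annotated start alone, the count of snRNA genes was again 7, against 13.5% of all genes.

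By polymerase, 4 of 21 genes of U1, U2, U4 and U5 had a summit (19.0%), and 3 of 5 genes of U6 and 7SK did (60.0%). With U6atac, which has no thresholded summit, counted among the polymerase III genes, it was 3 of 6. The remaining single genes, none of them with a thresholded summit, were counted with neither polymerase. Counting them with either one would lower its share. The difference between the polymerases rests on few genes, and both U6 genes counted share 1 summit. Counted as summits, there were 4 at polymerase II genes and 2 at polymerase III genes. By family, a summit lay at 1 of 5 U1 genes, 1 of 6 U2 genes, 0 of 3 U4 genes, 2 of 7 U5 genes, 2 of 3 U6 genes and 1 of 2 7SK genes. None of the 6 single genes U4atac, U6atac, U7, U11, U12 and LU had one. Other short RNA genes with promoters of either polymerase were read in the same way. Both genes of 7SL RNA, the RNA of the signal recognition particle, had no peak in the thresholded or the ranked list. The RNA genes of RNase P and RNase MRP and the 3 genes of U3 snoRNA had ranked peaks with signals from 23.6 to 40.1 but no thresholded one.

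**Figure D2:**
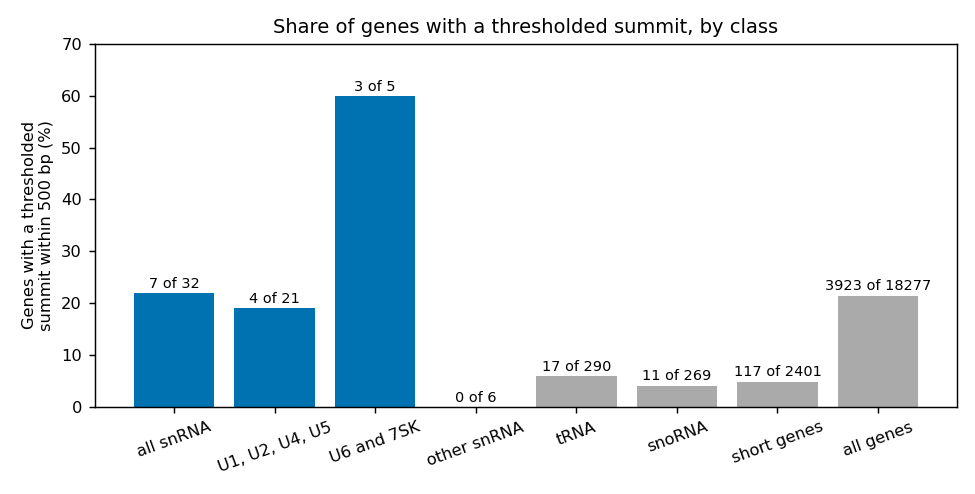
Share of genes with a thresholded summit inside the gene or within 500 bp of it, in percent, with the counts above each bar. All snRNA genes (7 of 32) and their groups stand at the left, and tRNA, snoRNA, short and all annotated genes at the right.

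At 3 of the 4 polymerase II genes with a summit, U1:95Ca, U2:34ABb and U5:63BC, it lay inside the gene, and at U5:35D it lay beyond the gene's end. U1:95Ca (chr3R:23859467-23859630, minus strand) lies in no other annotated gene. Its pooled signal, the authors' enrichment value for the peak, was 103, which was higher than 55.4% of the thresholded peaks, at 79 bp past the start. Replicate 1 had a signal of 59.2 at 84 bp past the start, and replicate 2 had 49.4 at 61 bp past the start. Signals are not on a common scale between lists, and both replicate peaks were in the thresholded list of their own replicate. They stood above 39.9% and 30.9% of the peaks of those lists. The nearest start of a gene of another class was that of Pli, 30501 bp away.

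U5:63BC (chr3L:3090801-3090923, plus strand) gave a similar picture. The pooled signal was 93.4, above 49.2% of thresholded peaks, at 78 bp past the start. Replicate 1 had 47.2 at 97 bp and replicate 2 had 45.3 at 43 bp past the start, and both were in thresholded lists. All 3 summits lay inside the gene, which is 123 bp long. The nearest start of another class was that of a cysteine tRNA gene, 4858 bp away.

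U5:35D (chr2L:15751557-15751682, minus strand) had a signal of 123 in the pooled list, 63.1 in replicate 1 and 55.6 in replicate 2. These were the highest of the members in the pooled list and in replicate 1, while in replicate 2 the U6 summit was higher, at 64.3. The summits lay 482, 454 and 477 bp past its start, beyond the end of the gene. The pooled summit was 122 bp before the start of ND-B17, which codes for a subunit of mitochondrial complex I, and 357 bp from the end of U5:35D. The summit was therefore nearer to the start of ND-B17 than to the snRNA gene, and it is the only one of the 6 of which this holds.

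U2:34ABb (chr2L:13215839-13216030, plus strand) had a weaker peak. Its pooled signal was 69.2, above 25.6% of thresholded peaks, at 157 bp past the start, with an IDR of 0.00578. It was in the conservative list but in neither replicate's thresholded list. In the ranked lists, which also hold peaks that did not recur, replicate 1 had 38.0 at 154 bp and replicate 2 had 24.9 at 162 bp past the start, so the 3 summits lay within the gene. Its q-value was 0.0738, and 1409 of 4590 thresholded peaks (30.7%) also had one above 0.05.

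Of the 2 summits at polymerase III genes, that at 7SKa lay inside the gene and that at the U6 copies lay between genes. U6:96Aa, U6:96Ab and U6:96Ac stand in a row on 3R, and the pooled summit lay in the space between the last 2, 96 bp before the start of U6:96Ac (chr3R:24557215-24557321, plus strand) and 427 bp past the start of U6:96Ab. Its pooled signal was 93.8, above 49.6% of thresholded peaks. Replicate 1 had 39.1 at 30 bp before the start of U6:96Ac, above 6.60% of its thresholded list, and replicate 2 had 64.3 at 112 bp before it, above 52.7% of its list. The replicates thus differed in the place of this peak, by 82 bp, and in its rank. The sequence around the pooled summit follows on the plus strand, with the summit base and the element ATTCTCAA before U6:96Ac in capitals.
U6:96Ac summit (chr3R:24557069-24557169, plus strand): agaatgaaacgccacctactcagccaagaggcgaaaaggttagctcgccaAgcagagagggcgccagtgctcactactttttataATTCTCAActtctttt

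7SKa (chr3R:7474553-7474996, minus strand) had the weakest of the 6 summits, with a pooled signal of 63.6, above 18.9% of thresholded peaks, at 221 bp past its start. Replicate 1 had 43.7 at 133 bp past the start, in its thresholded list. Replicate 2 had no thresholded peak there and 2 ranked ones, 29.8 at 372 bp and 20.9 at 127 bp past the start. The peak was not in the conservative list, its IDR was 0.00541 and its q-value was 0.130. The replicates differed at 7SKa in both call and place.

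**Figure D3:**
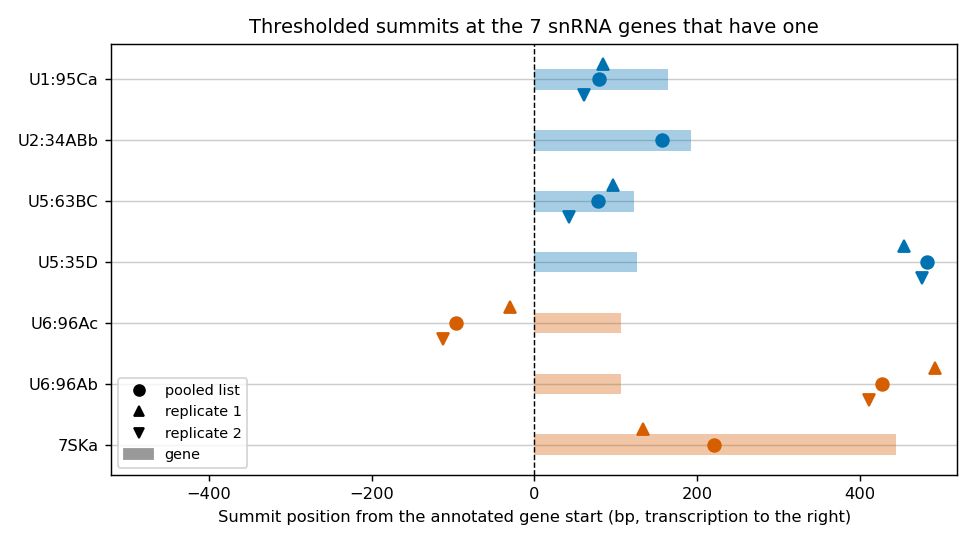
Thresholded summits of the pooled list, replicate 1 and replicate 2 at the 7 snRNA genes that had one, in bp from the annotated start, with the gene drawn as a bar. The summits at U1:95Ca, U2:34ABb, U5:63BC and 7SKa fall inside the gene, that at U6:96Ac 96 bp before its start, and that at U5:35D 482 bp past its start.

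Taking the nearest summit of each gene, 4 of the 7 snRNA genes had it inside the gene, against 18 of 110 other genes no longer than the longest snRNA gene (16.4%). The genes were not matched for length, and the U6 summit counts for 2 of the 7, here and in the median that follows. The median distance from the start, counted alike in both directions, was 157 bp over the 7 genes. Counted in the same way, it was 114 bp for summits within 500 bp of a protein-coding start. At the starts of protein-coding genes the summits mostly lay upstream: of 1979 summits within 500 bp of such a start, 344 (17.4%) lay past it, and the median position was 96 bp before the start. The sequence within 50 bp of each of the 6 summits had more G and C than the median thresholded summit. The share was 50.5% at U1:95Ca, 52.5% at U2:34ABb, 38.6% at U5:63BC, 37.6% at U5:35D, 46.5% at the U6 summit and 67.3% at 7SKa, against a median of 33.7% over 4565 thresholded summits on the chromosome arms. Only 12 of those 4565 summits (0.263%) reached the value at 7SKa. The homeodomain core TAATTA, searched on both strands, stood at 0 of the 6 snRNA summits and at 422 of the 4565 (9.24%). The word TATCGATA stood at 0 of 6 and at 78 of the 4565 (1.71%).

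The snRNA genes without a thresholded summit had weaker ranked peaks or none. In the pooled ranked list 26 of 32 had a peak within 500 bp, against 70.6% of short genes, so a ranked peak by itself sets the class little apart. By score, the members nearest to the IDR of 0.01 were 7SKa and U2:34ABb within it, and U1:21D (IDR 0.0636) and U4:39B (IDR 0.0882) beyond it. By distance, U5:35D lay just within 500 bp, at 357 bp from the summit, and U6:96Aa just beyond, at 925 bp from the summit that U6:96Ab and U6:96Ac share. For the 25 genes without a summit, the nearest thresholded one lay 925 to 51477 bp away, with a median of 11501 bp.

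U1:21D had a pooled signal of 43.2 at 18 bp past its start, with 33.7 in replicate 1 and 16.9 in replicate 2, whose summit lay 213 bp past the start. U4:39B had 35.2 at 48 bp past its start, with 14.8 in replicate 1 and 21.5 in replicate 2. The summits at these genes fell in the gene in the pooled list, as they did at U1:95Ca and U5:63BC, but were not thresholded. U5:38ABa had 32.2 at 36 bp past its start (IDR 0.351), and U11 had 32.8 at 62 bp past its start (IDR 0.628). U2:34ABa reached 37.1 (IDR 0.225), and U1:95Cc 39.4 (IDR 0.759) at 31 bp from the start of a long noncoding RNA. U1:82Eb had 31.3, LU 35.2, U4:38AB 26.2 and 7SKb 24.4 as highest signals in the pooled ranked list. Those of U6:96Aa, U1:95Cb, U12, U5:23D, U7, U4atac, U5:38ABb, U6atac and U4:25F lay between 8.15 and 18.6, around or under the list's median of 18.9. 

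**Figure D4:**
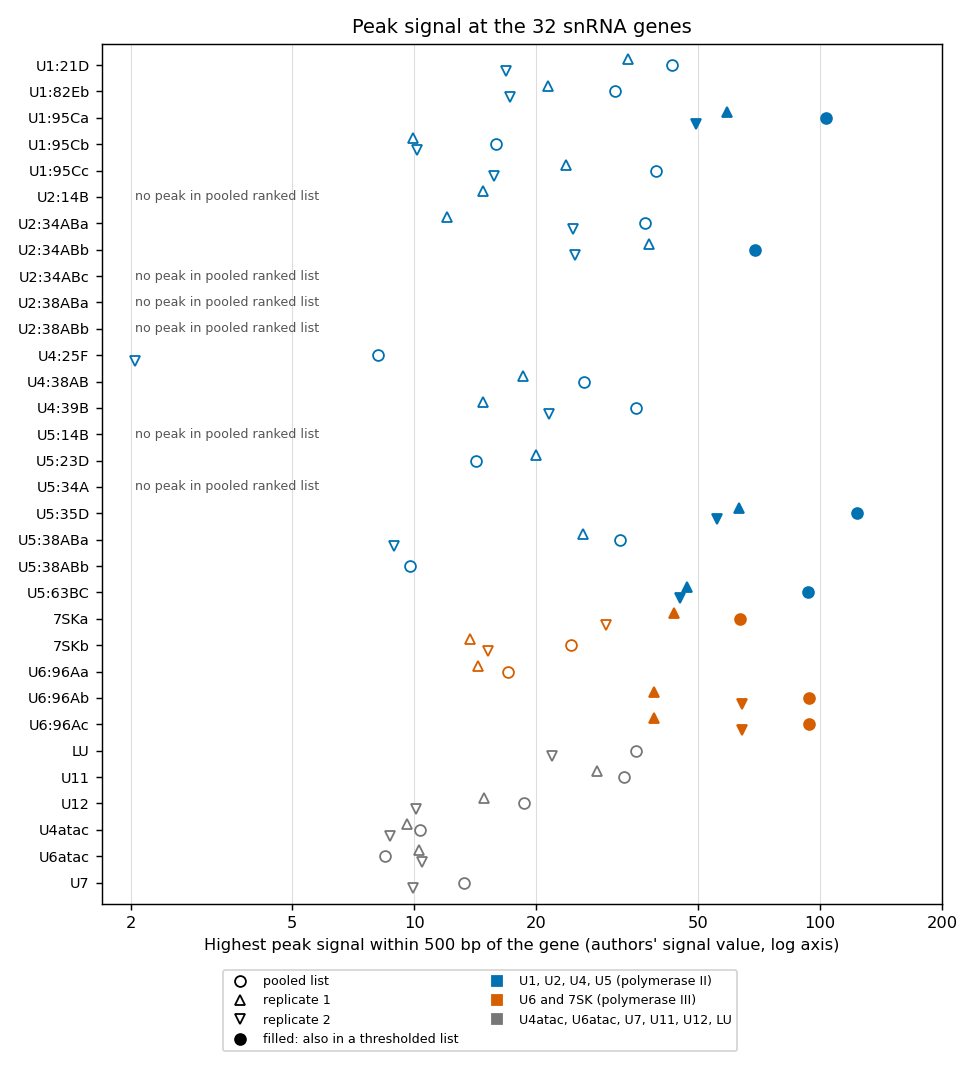
Highest peak signal within 500 bp of each of the 32 snRNA genes in the pooled ranked list and in the ranked lists of replicate 1 and replicate 2, on a log axis, with filled symbols where a peak was also thresholded. Pooled signals run from 63.6 to 123 at the 7 genes with a thresholded summit and from 8.15 to 43.2 at the 19 others with a peak, and 6 genes have no peak in the pooled list.

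No peak of the pooled ranked list lay within 500 bp of U2:14B, U5:14B, U2:34ABc, U5:34A, U2:38ABa and U2:38ABb. All 6 belong to head-to-head pairs of a U2 and a U5 gene, a grouping noticed after the values were seen. There are 4 such pairs, with starts 287 to 609 bp apart: U2:34ABc with U5:34A, U2:38ABa with U5:38ABb, U2:14B with U5:14B, and U2:38ABb with U5:38ABa. The 500 bp reaches of paired genes overlap, so the 8 genes stand for 4 places and are not separate cases. Of the 8 paired genes, 2 had a ranked peak, and of the other 24 snRNA genes all 24 did, beside 70.6% of short genes. In the replicates' own ranked lists, 2 of the 8 genes in replicate 1 and 1 of the 8 in replicate 2 had a peak, against 21 and 20 of the other 24. The share of short genes was not computed for those 2 lists. They come from the same replicates as the pooled list, so their counts are no separate support.

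Copies of U1, U2 and U6 are nearly identical, and reads from them can be hard to place. The bodies of U6:96Aa, U6:96Ab and U6:96Ac were identical over 107 bases, those of U1:21D, U1:95Ca and U1:95Cb over 164 bases, and those of U2:34ABb and U2:34ABc over 192 bases. The U1 sequence is shown because a read within it fits each of the 3 copies equally.
U1:95Ca gene (chr3R:23859467-23859630, minus strand): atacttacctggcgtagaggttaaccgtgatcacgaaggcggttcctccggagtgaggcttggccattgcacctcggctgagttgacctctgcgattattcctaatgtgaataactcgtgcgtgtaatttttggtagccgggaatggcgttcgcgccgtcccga

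The identical copies differed in their peaks. Among the 3 identical U1 genes, U1:95Ca had a pooled signal of 103 and U1:21D 43.2, both with the summit inside the gene. U1:95Cb had no pooled summit inside the gene, and its highest signal, 15.9, lay 371 bp before the start. Among the identical U2 genes, U2:34ABb had 69.2 and U2:34ABc no ranked peak. Before the genes the copies were less alike. In the 100 bp before the start, U2:34ABb matched U2:34ABc at 67 positions, U1:95Ca matched U1:21D at 50 and U1:95Cb at 53, and U6:96Ac matched U6:96Ab at 54 and U6:96Aa at 36. Other families were less alike within the genes. Copies of U5 ranged from 78.5% to 96.1% identity and those of U4 from 73.8% to 94.4%, and 7SKa and 7SKb were 48.9% identical.

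In 9 of the 32 genes no 36-base word was found only once in the genome: U1:21D, U1:95Ca, U1:95Cb, U2:34ABb, U2:34ABc, U2:38ABa and the 3 U6 genes. The flanks were mostly unique. With 500 bp on both sides, the share of words found once was 87.4% at U1:95Ca, 84.6% at U2:34ABb, 94.9% at U5:63BC, 94.7% at U5:35D and 87.8% at U6:96Ac, and at 7SKa every word was found once. It was lowest at U2:34ABc (40.2%), U2:38ABa (52.3%), U2:38ABb (53.7%) and U5:34A (76.6%), all without a ranked peak. U2:14B (86.6%) and U5:14B (94.2%) also had none, at shares like those of genes with thresholded summits. Over the peak intervals themselves, the share was 45.6% at U1:95Ca, 42.9% at U2:34ABb, 78.5% at U5:63BC and 92.7% at the U6 summit, and at U5:35D and 7SKa every word was found once. Of 4565 thresholded peaks on the arms, 4531 consisted only of words found once, 13 were under 90%, and 3 of those 13 lay at snRNA genes, those of U1:95Ca, U2:34ABb and U5:63BC. How reads that fit several copies were assigned is not stated in the labels or file listings, and its part in these peaks was not tested.

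**Figure D5:**
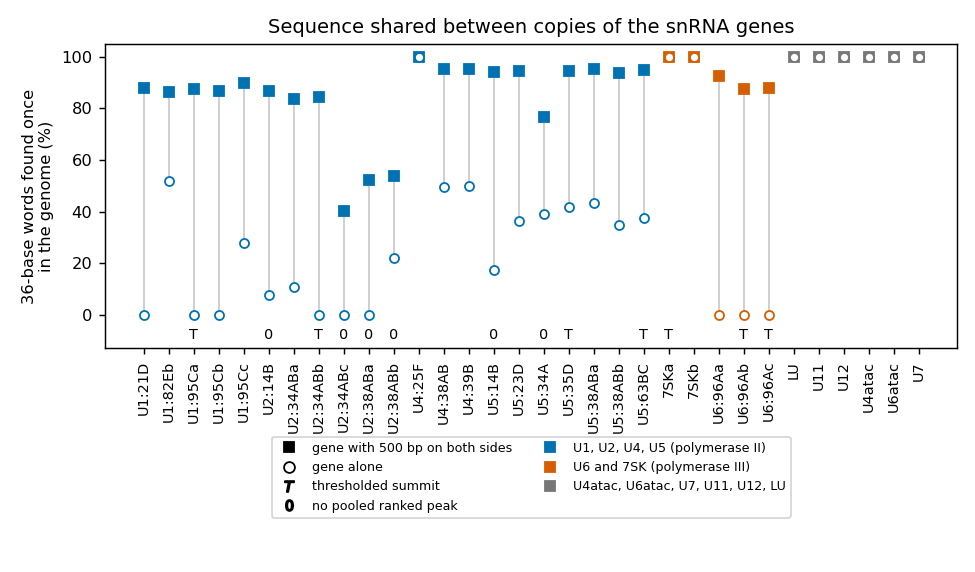
Share of 36-base words found once in the genome, in percent, for each snRNA gene alone (open circles) and with 500 bp on both sides (squares). T marks the 7 genes with a thresholded summit and 0 the 6 with no pooled ranked peak; 9 genes alone stand at 0%, while the 4 lowest squares, 40.2% to 76.6%, belong to genes with no ranked peak.

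Most of the calls at snRNA genes recurred in the other lists, which come from the same 2 replicates. A conservative summit lay at 6 of 32 snRNA genes, against 4.04% of short genes. The thresholded list of replicate 1 had a summit at 6 of 32, against 3.42% of short genes, and that of replicate 2 at 5 of 32, against 3.67%. U1:95Ca, U5:35D, U5:63BC and both U6 genes were called in each of these 3 lists.

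Genes for proteins that make or carry snRNAs were read from their starts, together with Lsm and P-TEFb genes. The Lsm list was not limited to proteins that bind snRNAs. Of these 73 genes, 17 had a thresholded summit within 500 bp (23.3%), against 16.1% of protein-coding genes. In Integrator and the little elongation complex, which process and transcribe polymerase II snRNAs, 7 of 17 genes had one, led by IntS11 (signal 301), IntS6 (233), IntS9 (201) and defl (96.4). Among promoter factors 3 of 10 had one: Bdp1 (327) and Brf (201), of the polymerase III initiation factor TFIIIB, and TfIIB (123), a general factor of polymerase II. All 3 were called in both replicates, as were 4 of the 7 in Integrator and the little elongation complex. Over all lists, 8 of the 17 genes with a summit were called in both replicates. The same share over protein-coding genes was not computed, so these counts have no value to be set against. Among particle proteins 4 of 18 had one, led by snRNP-U1-C (211), a protein of the U1 particle. The count was 2 of 11 for Lsm proteins, LSm1 (87.4) and CG10418 (72.2), and 1 of 13 for the Sm ring and SMN complex, Gem2 (51.3). It was 0 of 4 for the 7SK particle and P-TEFb. The lists are small, no test was made on them, and they were written with earlier results of these data known. For these genes it was not checked whether the start of another gene lay nearer to the summit.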

How the data were processed

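Peak lists from H2.0-eGFP chromatin immunoprecipitation in 1 group of 2 replicates were used. No reads were used, so depth is unknown. Sheared fragments of 200 to 800 bp were taken, and coordinates are on dm6, per the labels. The deposited signal of a peak is the authors' enrichment value. The deposited score is the authors' IDR score, at least 830 in each thresholded list. The deposited lists also hold −log10 of a q-value and, in ranked lists, of the IDR. The sources used here do not give the aligner, the peak caller or the handling of reads that fit several places, and the control library was not used here.

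Summits were assigned in Python with pandas 2.3.3 and biopython 1.88 to genes of Ensembl BDGP6 release 115 on the chromosome arms, within 500 bp of the gene. Words, motifs and alignments were read from the RefSeq sequence of the same assembly, whose arm lengths hold all peaks. Every snRNA gene is named, and at most 4 genes per pathway list. HEXIM found no match in the annotation. Assignment and word counts were tested on simulated data. Members, lists and rules were chosen with earlier results of these data known. The alternatives were another list, reach, IDR, start, element window and word length, and leaving out each replicate.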

Additional observations from a re-analysis of the deposited data

How the results depend on the processing

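The count of snRNA genes with a thresholded summit was 7 and lay between 5 and 8 in the alternatives run: the conservative list, a reach of 250 or 1000 bp, distance from the gene start, an IDR of 0.05 or 0.005, ranked peaks past the score added back, no summit nearer to a start of another class, and no gene of uncertain class. Leaving out replicate 1 gave 5 genes and leaving out replicate 2 gave 6. An IDR of 0.005 left out 7SKa and U2:34ABb, 250 bp left out U5:35D and U6:96Ab, and 1000 bp added U6:96Aa. U5:35D was lost where summits nearer to a start of another class did not count. Counts at polymerase II genes stayed between 3 and 4 and at polymerase III genes between 2 and 4, and distinct summits between 4 and 7. The median distance from the start, 157 bp, was 126.5 bp in the conservative list and 112 to 115 bp with one replicate left out. The element's count was 26 with a window of 150 bp and 31 with 1 mismatch or any base at the fifth position. The form with 1 mismatch stood before 10.3% of all genes, against 2.14% for any base at the fifth position. The count of genes with no word found once was 9 at words of 50 and 100 bases. No paired analysis was possible because there is only 1 group. Depth limits are not known, and a gene without a listed peak may have had reads that were not listed.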
